A study of Macaca mulatta with 13 samples.

Results

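The deposited small RNA count table of rhesus monkey muscle held 1703 rows, of which 702 carried no miRNA name and were labelled by a chromosome or scaffold, a start, an end and a strand. These 702 predicted small RNA loci were every row whose name lacked the species prefix used for the 1001 rows of named miRNAs, so no measured value entered the choice. The RNA was from Macaca mulatta thigh muscle, the vastus lateralis, taken by biopsy. There were 8 samples from animals on caloric restriction (CR) and 5 from animals on the Control diet. Small fragments of 17 to 35 nt were isolated from a gel before the libraries were made. The labels give diet and tissue but not age, sex or the length of the restriction, and they do not say outright that each sample was a different animal, so p-values measure the spread between these samples.

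A miRNA is cut from a folded hairpin transcript and loaded into an Argonaute protein, which it guides to matching messenger RNAs. Prediction programs look for reads piled on a stretch of genome that could fold into such a hairpin. Reads of the same size also arise from pieces of tRNA, rRNA, small nucleolar RNA and mitochondrial transcripts, and a repeated sequence can be assigned to several places at once. Muscle is rich in mitochondria, and copies of mitochondrial DNA also lie in nuclear genomes. Unplaced scaffolds are assembled stretches that have not been assigned to a chromosome and often hold repeats. What each predicted locus encodes was not analysed here, because no annotation or sequence of the build was used.

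Libraries held 1167592 counts (CR replicate 1) to 5441224 counts (CR replicate 6) over the 909 distinct named miRNAs and the 702 loci. The muscle miRNAs miR-1, miR-133a, miR-133b, miR-206, miR-486, miR-499 and miR-208b together took 52.3 to 74.5% of counts in CR and 44.7 to 67.3% in Control. They were thus abundant as a set, which does not show that each was. With miR-486 left out of the totals, the mean share of predicted loci in CR rose from 1.25 to 2.94%, so miR-486 made up a large part of the counts. Sets of red blood cell and leukocyte miRNAs took at most 0.131 and 0.123% of a library. The liver miRNA miR-122 reached at most 0.00221% of a library. Depth limits what a 0 means. From counting error alone, a count of 0 allows an expected count of up to about 3 at 95% confidence. Those 3 counts corresponded to 0.551 to 2.57 CPM (counts scaled to library size) depending on the library.

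The loci lay on every autosome and the X, on the mitochondrial genome and on unplaced scaffolds. Of the 702, 676 were on 21 chromosomes, 1 was on the mitochondrial genome and 25 were on 24 scaffolds. Chromosome 1 held the most, 60 loci or 8.55%, and 50 of them had counts in 1 library only. Chromosomes 19, 14, 16 and 3 followed with 49, 48, 47 and 45 loci, and chromosomes 17 and 18 had the fewest, 9 and 6. Chromosome 9 ranked below these leaders in number, with 43 loci, but it held 8 loci with counts in at least 7 libraries and 4 with counts in all 13. By counts, chromosome 1 took 49.1% of all 509550 counts of predicted loci.

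**Figure D1:**
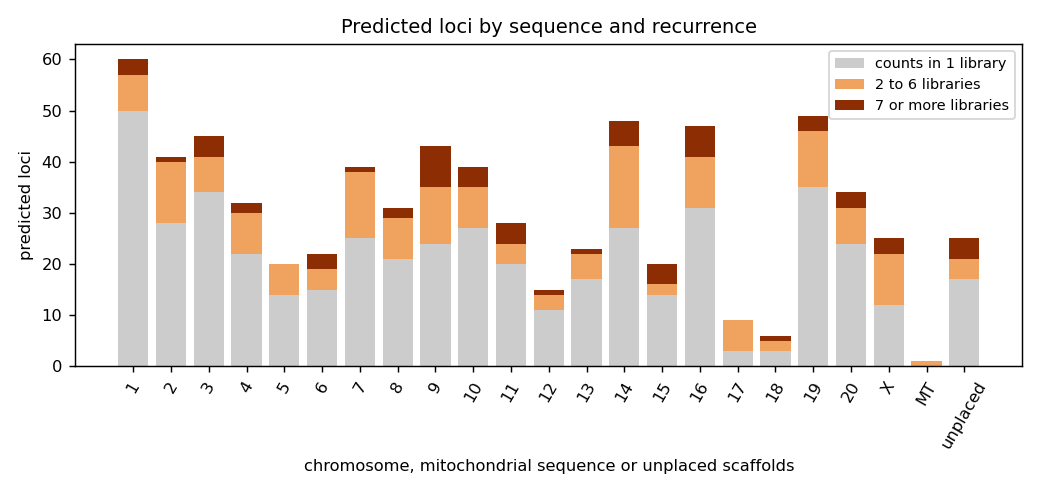
Number of predicted loci per chromosome, on the mitochondrial genome (MT) and on unplaced scaffolds, with bars split by the number of libraries in which a locus had counts. Chromosome 1 is highest with 60 loci, and on it 50 had counts in 1 library only.

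The strands were about equally used, with 339 loci (48.3%) on the plus strand and 363 on the minus strand. Chromosome 16 had 15 plus and 32 minus loci, chromosome 3 had 15 and 30, and chromosome 6 had 17 and 5. The intervals spanned 35 to 105 bases, counting both end positions, with a median of 62 and quartiles of 57 and 69. Every interval was thus at least as long as the longest fragments isolated from the gel. The shortest, chr13:26250000-26250034 on the minus strand, had 2 counts in Control replicate 2 only. The longest, chr3:154890601-154890705 on the plus strand, had 22 counts in CR replicate 1 only. Length varied less among recurrent loci: its SD was 12.1 bases for loci seen in 1 library, 9.86 for 2 to 6 libraries, 6.74 for 7 to 12 and 4.18 for all 13, where intervals spanned 58 to 75 bases.

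Most loci appeared in 1 library. This held for 474 of 702 (67.5%), while 75 had counts in 2 libraries, 63 in 7 or more and 15 in all 13. The single-library loci were mostly very low: their median was 2 counts, and 365 (77.0%) had at most 5. A few were not, since 17 had at least 100 counts and 8 had at least 1000. Of the single-library loci, 319 (67.3%) were in CR, which made up 61.5% of the libraries, and 155 were in Control. Over all loci, 361 had counts in CR only, 167 in Control only and 174 in both groups. Among the 228 loci with counts in at least 2 libraries, 42 were in CR only and 12 in Control only. CR had more libraries than Control, so a locus had more chances to be listed in CR only. These counts are therefore no comparison of the diets.

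**Figure D2:**
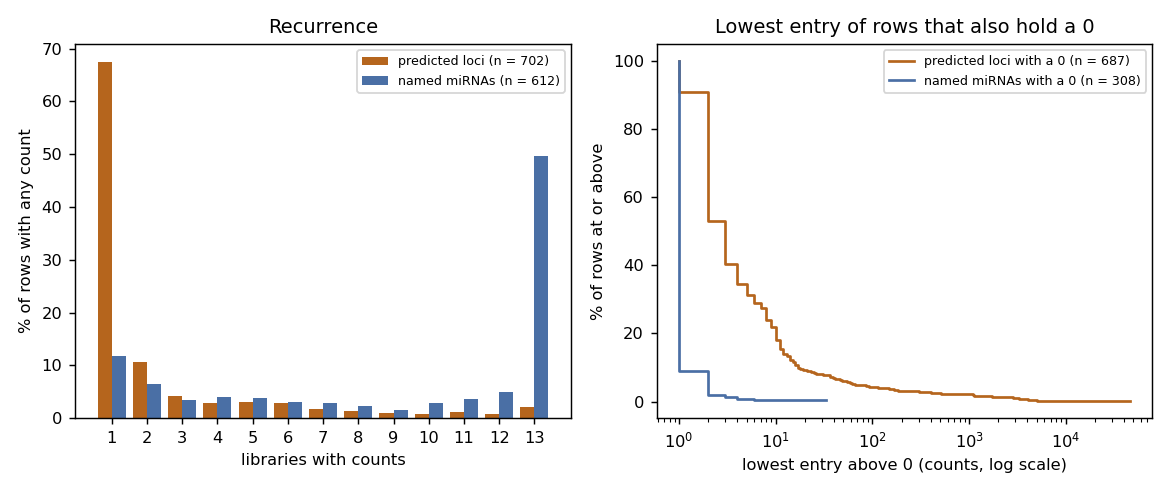
Left, percent of rows with any count that had counts in 1 to 13 libraries, for the predicted loci and the named miRNAs. Right, among rows that also hold a 0, percent whose lowest entry above 0 was at or above the count on the log axis. Predicted loci peak at 1 library (67.5%), and 22.0% of those with a 0 had no entry under 10, against 0.325% of such named miRNAs.

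The entries of the predicted loci behaved unlike low counts of the named miRNAs. Above 0 were 1646 of 9126 entries (18.04%) of predicted loci and 5581 of 7956 entries (70.1%) of named miRNAs that had any count. Among the entries above 0, a count of 1 made up 3.83% in predicted loci and 13.1% in named miRNAs, while a count of 2 made up 17.3% and 6.49%. A count of 2 was thus more frequent than a count of 1 in predicted loci, the reverse of the named miRNAs. Of the 687 predicted loci with a 0 in some library, 151 (22.0%) had a lowest entry of at least 10 counts, 29 of at least 100 and 15 of at least 1000. Among the 308 named miRNAs with a 0, 1 had a lowest entry of at least 10 and 0 of at least 100.

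Many zeros stood where the depth of the library would have given counts. In the 213 predicted loci with counts in 2 to 12 libraries there were 1792 zeros. For 25.2% of these, in 89 loci, the lowest CPM seen in any other library would have given at least 10 counts in the library listed at 0. In the 236 named miRNAs with counts in 2 to 12 libraries, 0 of 1511 zeros met that condition. A 0 at a predicted locus can therefore not be read as a measured absence, and may be a missing entry. Whether the table lists a locus only in libraries where it was predicted was not tested. For this reason levels are given below both with zeros as counts and over the entries above 0.

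Few loci carried most of the counts. The 7 loci with the highest totals held 83.5% of all counts of predicted loci, and each of the 7 was listed at 0 in at least 1 library, whereas 426 loci (60.7%) had a total under 10. The 474 single-library loci held 13.6% of the counts, those in 2 to 6 libraries 24.1%, those in 7 to 12 libraries 57.6% and the 15 found in all 13 libraries 4.72%.

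The highest total was that of chr1:13705724-13705791 on the plus strand, with 42.4% of all counts of predicted loci. It had 5381, 34293, 19007, 25079 and 47172 counts in CR replicates 1, 2, 3, 5 and 7 and 0 in CR replicates 4, 6 and 8, against 29240, 32252 and 23532 in Control replicates 1, 3 and 5 and 0 in Control replicates 2 and 4. Libraries of both diets thus held either at least 5381 counts or 0. Over the 8 entries above 0 it ran from 4609 to 9492 CPM. At the lower of these levels it would have given 13199 counts in the shallowest library listed at 0. Its fitted log2 fold change, CR against Control, was -0.42 ± 2.28 (SE; edgeR, adjusted p = 0.988). With zeros treated as missing entries it was -0.50 ± 0.34 (limma, adjusted p = 0.995). Its direction did not hold in every fit: limma-voom gave 0.67, and over the alternatives the value ran from -0.74 to 0.67 with adjusted p from 0.953 to 1.00.

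Other abundant loci were likewise listed either high or at 0. The locus chr11:120739441-120739511 on the minus strand had 2070, 7002, 6487, 3063 and 8042 counts in CR replicates 1, 4, 6, 7 and 8 and 0 in the other CR libraries, against 3260 and 5258 in Control replicates 1 and 3 and 0 in the other Control libraries. The locus chr1:161917776-161917825 on the minus strand had 6205, 2820 and 7641 counts in CR replicates 6, 7 and 8, against 3131 and 5103 in Control replicates 1 and 3, and 0 elsewhere. In the 5 libraries where both loci had counts, the counts differed by 2.95 to 7.93%, although the intervals lie on different chromosomes. CR replicates 1 and 4 had counts at the first of them alone. The locus chr2:50860331-50860408 on the plus strand followed the same form at a lower level, with 507, 968, 671 and 1236 counts in CR replicates 1, 2, 4 and 7, against 641 and 916 in Control replicates 1 and 2, and 0 elsewhere.

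The abundant locus chr8:92447795-92447853 on the minus strand was listed in 12 libraries. It had 2758, 1726, 2642, 2059, 3498, 5072 and 1959 counts in CR replicates 2 to 8, against 2529, 2354, 2058, 1844 and 2454 in Control replicates 1 to 5. Its sole 0 was in CR replicate 1, the shallowest library, where its lowest level elsewhere would have given 463 counts. Its fitted log2 fold change was -0.0661 ± 0.84 (SE; edgeR, adjusted p = 0.988), and with the 0 treated as a missing entry it was 0.26 ± 0.26 (limma, adjusted p = 0.995). The sign of the estimate was not stable, and neither value passed.

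Several of the highest totals came from 1 library. The locus chr4:113958141-113958195 on the plus strand had 46063 counts in CR replicate 7 and 0 in the other 12 libraries. The locus chr1:197707854-197707930 on the plus strand had 5047 counts in Control replicate 5 alone. Such loci have no replicate and did not pass the filter of the main edgeR fit. The presence test and the fit without the filter included them and called 0. In CR replicate 4, the loci chr11:125073816-125073878 (minus strand), chr4:29104275-29104337 (minus strand), chr4:27182917-27182979 (plus strand) and chr20:16267590-16267654 (plus strand) had 1113, 1112, 1112 and 1104 counts. These 4 were singled out after their values were seen, and of them chr4:27182917-27182979 also had 1909 counts in CR replicate 3.

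**Figure D3:**
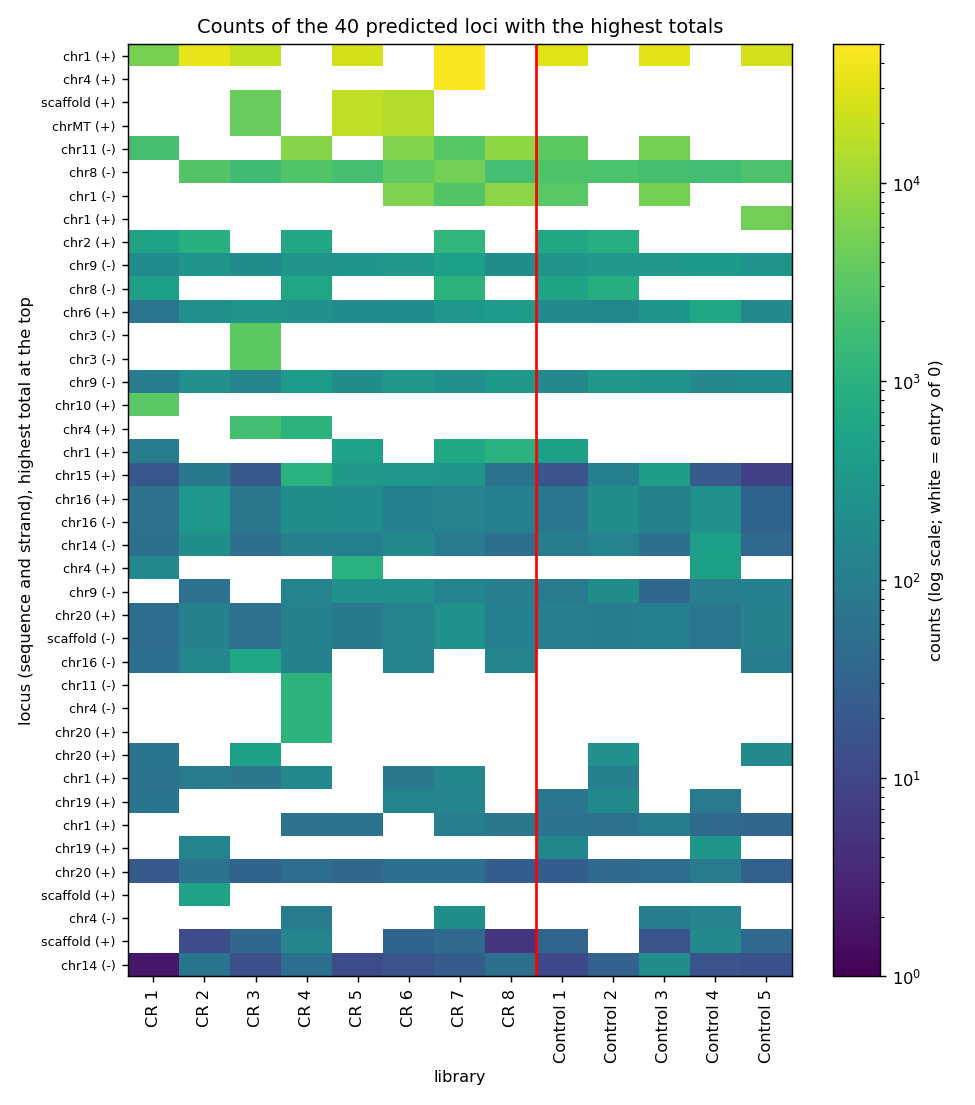
Counts of the 40 predicted loci with the highest totals on a log colour scale, 1 row per locus and 1 column per library, with the 8 CR libraries left of the 5 Control libraries (red line) and entries of 0 in white. The locus at the top holds 5381 to 47172 counts in 8 libraries and 0 in the other 5, while unbroken rows mark loci with counts in every library.

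The mitochondrial locus and 1 scaffold locus shared their counts. The locus on the mitochondrial genome at 10344-10391 on the plus strand had 4082, 18051 and 14115 counts in CR replicates 3, 5 and 6, and 0 in the other CR libraries and in all 5 Control libraries. The locus on scaffold JSUE03128166.1 at 125-172, also on the plus strand and also 48 bases long, had exactly the same count in every library. Whether the same reads were listed in both places was not tested. Counts in 3 of 8 CR libraries against 0 of 5 Control libraries gave a Fisher's exact p of 0.231 (adjusted p = 1). At its lowest CPM the mitochondrial locus would have given 1721 counts in the shallowest library listed at 0.

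As a share of a library's counts, the mitochondrial locus took 0.147, 0.543 and 0.259% in CR replicates 3, 5 and 6, with a mean of 0.119% ± 0.197 (SD, n = 8) over CR and 0% in Control (n = 5). Without CR replicate 5 the difference of means fell to 0.0581 percentage points. All 25 scaffold loci together took 0.127% ± 0.195 in CR (SD, n = 8) and 0.00976% ± 0.00229 in Control (SD, n = 5), a difference of 0.117 points, or 0.0566 without CR replicate 5. Without the scaffold locus that matched the mitochondrial one, the difference was -0.00165 points. The higher scaffold share of CR thus rested on that locus. The third scaffold locus by total count, on KQ744902.1 at 148023-148076 (plus strand), had 527 counts in CR replicate 2 alone.

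Equal counts also tied other rows together. Among loci with a total of at least 20, 17 rows fell into 8 groups whose counts were identical in all 13 libraries. In 6 groups the members had equal lengths, in 6 they lay on different chromosomes or scaffolds, and 4 groups included an unplaced scaffold. The loci chr16:52715403-52715462 (plus strand) and chr16:61502964-61503023 (minus strand) were one such pair, 60 bases each with counts in all 13 libraries. The loci chr20:11770888-11770951 (plus strand) and the interval 712-775 on scaffold JSUE03119202.1 (minus strand) were another, 64 bases each. A group of 3 joined chr2:202969229-202969288 (minus strand), chr2:204683587-204683644 (plus strand) and the interval 988-1047 on scaffold JSUE03328022.1 (minus strand). Rows of such a group carry the same values, but counts of loci below are of rows unless patterns are named, a pattern being a group of identical rows counted once.

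Loci close together were few. There were 13 pairs that overlapped on the same strand, by 19 to 55 bases, and 0 that overlapped on opposite strands. In 9 of the 13 the counts were equal in every library where both had counts. The pair with the most counts was chr3:49297559-49297625 and chr3:49297602-49297680 on the minus strand, with 3321 and 3332 counts in CR replicate 3 and 0 elsewhere. On the plus strand of chromosome 14, the overlapping intervals 123132102-123132168 and 123132145-123132222 both had 156 counts in CR replicate 3, 9 in CR replicate 6 and 8 in Control replicate 4. The first alone had 9 in Control replicate 2, and the second alone had 8 in CR replicate 5 and 8 in Control replicate 1. Their counts were thus equal in the 3 libraries that listed both, and 3 further libraries listed only one of them. At chr20:74558506-74558585 (plus strand), 15 counts in Control replicate 1 overlapped the widely listed locus chr20:74558562-74558622.

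The 15 loci with counts in every library had levels that could be compared without the question of zeros. Because 2 pairs among them were identical, they form 13 patterns. Their levels below are CPM with TMM scaling (trimmed mean of M values, a correction for differences in library makeup). In all 15 the CR and Control values overlapped, and among all rows of the table with counts in every library the share without overlap was 0%. In 10 of 15 rows, or 8 of 13 patterns, the fitted level was higher in CR. For 8 rows, or 7 patterns, the 95% interval excluded a change of 2-fold in either direction.

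The highest counts in this set belonged to chr9:99205167-99205229 on the minus strand. In CR it had 184 to 454 counts with a median of 282.5, and in Control it had 288, 334, 353, 366 and 274 counts. Levels were 82.9 ± 13.01 CPM in CR (SD, n = 8) and 91.5 ± 23.5 CPM in Control (SD, n = 5). The log2 fold change was -0.14 ± 0.20 (SE; edgeR, adjusted p = 0.988). The values lay within a narrow band in both diets. The locus chr20:74558562-74558622 on the plus strand also varied little, at 11.9 ± 1.79 CPM in CR (SD, n = 8) and 11.5 ± 1.38 CPM in Control (SD, n = 5), with a log2 fold change of 0.0510 ± 0.21 (SE; edgeR, adjusted p = 0.988).

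The set also held variable loci. The locus chr15:28246144-28246201 on the plus strand had 19, 80, 21, 1017, 330, 322, 292 and 65 counts in CR replicates 1 to 8, against 17, 106, 413, 22 and 8 in Control replicates 1 to 5. High and low libraries occurred in both diets. Its level was 69.0 ± 84.5 CPM in CR (SD, n = 8) and 30.4 ± 45.8 CPM in Control (SD, n = 5), with a log2 fold change of 1.19 ± 1.02 (SE; edgeR, adjusted p = 0.988). Leaving out CR replicate 4 gave 0.45, and leaving out Control replicate 3 gave 2.73. The locus chr14:104382412-104382471 on the minus strand had 2 to 68 counts in CR with a median of 20.5, and 11, 30, 203, 17 and 15 counts in Control. Its direction rested on Control replicate 3: the log2 fold change was -0.77 ± 0.76 (SE; edgeR, adjusted p = 0.988), and 0.77 without that library.

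The X chromosome locus chrX:58248398-58248462 on the minus strand had the smallest unadjusted edgeR p of any predicted locus. It had 11 to 47 counts in CR with a median of 28.5, and 36, 34, 44, 82 and 24 counts in Control. Levels were 8.31 ± 1.79 CPM in CR (SD, n = 8) and 11.2 ± 1.78 CPM in Control (SD, n = 5), and 8 of 8 CR libraries lay below the Control mean. The log2 fold change was -0.43 ± 0.24 (SE), with an edgeR p of 0.0948 and an adjusted p of 0.988, so the difference did not pass. In the other direction, chr9:92962217-92962277 (minus strand) was at 8.59 CPM in CR and 6.19 CPM in Control, above the Control mean in 7 of 8 CR libraries, with a log2 fold change of 0.49 ± 0.38 (SE; edgeR, adjusted p = 0.988).

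The other loci of the set had smaller or less certain differences. The loci chr6:3016739-3016797 (plus strand) and chr9:81534767-81534824 (minus strand) had fold changes of 0.0726 ± 0.35 and 0.14 ± 0.35 on the log2 scale (SE). The identical chromosome 16 pair was at 41.8 CPM in CR and 32.4 CPM in Control, with a log2 fold change of 0.37 ± 0.36 (SE). The chromosome 20 and scaffold pair had 0.11 ± 0.31, chr14:1956807-1956870 (minus strand) -0.10 ± 0.37, chr2:93238936-93239010 (plus strand) 0.29 ± 0.37 and chr9:97266028-97266089 (minus strand) -0.31 ± 0.40. None of the 15 passed the edgeR threshold.

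**Figure D4:**
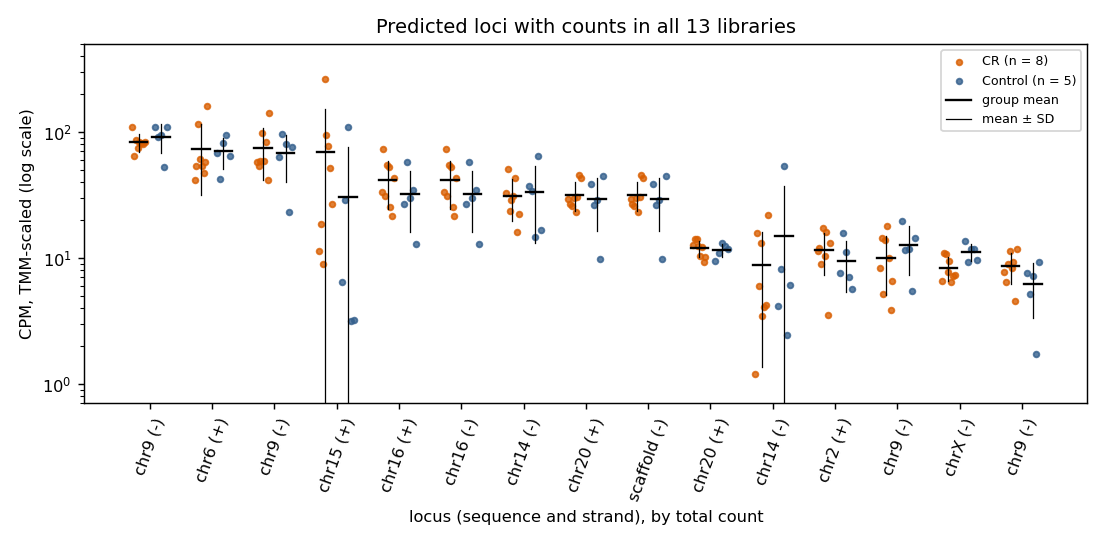
Level of each of the 15 predicted loci with counts in every library, as TMM-scaled CPM on a log axis, one point per library with CR (n = 8) left of Control (n = 5). Thick lines are group means and thin lines are mean ± SD, running off the axis where the SD exceeds the mean. The groups overlap at every locus, and the chromosome 15 locus has the widest spread.

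Across the table, 322 rows passed the filter on low counts and 59 of them were predicted loci, all with counts in at least 5 libraries. The edgeR quasi-likelihood test with Benjamini-Hochberg adjustment called 0 of the 59, and 0 of all 322 rows (0%). At an unadjusted p under 0.05 there were 0 predicted loci, where the whole table had 6 rows (1.86%). DESeq2 called 0 and had 0 at that level, where the whole table had 2.17%. Limma-voom called 2 (0.621% of all rows), and had 4 at the unadjusted level, where the whole table had 2.8%. Of the 59, 41 had a higher fitted level in CR (37 of 54 patterns), against 46.9% of all tested rows, and the median log2 fold change was 0.23, against -0.0316 over all rows. No test was made of that shift, and scaling by library totals alone moved the median of all rows to -0.21. The filter asked for enough counts in 5 libraries of either diet. A locus could thus pass on 5 of the 8 CR libraries, but on Control alone only if listed in all 5. Some of the 59 entered mainly through CR, so the shift is no comparison of the diets. Precision differed by recurrence: the median SE of the log2 fold change was 0.36 for the 15 loci in all libraries and 1.12 for the 44 in 5 to 12 libraries. With zeros treated as missing entries, 53 predicted loci had at least 3 entries in each diet, and limma called 0 of them, with 0 at an unadjusted p under 0.05, where the whole table had 3.04%.

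Of the 10 smallest edgeR p-values, those beyond the X locus and chr9:92962217-92962277 belonged to loci with zeros. The scaffold intervals 349-416 on JSUE03081685.1 and 19035-19102 on KQ744006.1, both on the minus strand, had identical counts: 26 and 53 in CR replicates 1 and 5 and 0 in the other 6 CR libraries, against 53, 72, 80, 126 and 36 in Control replicates 1 to 5. They were listed in every Control library and in 2 of 8 CR libraries. The log2 fold change was -2.33 ± 1.31 (SE), with an adjusted edgeR p of 0.988. Limma-voom called both rows, at -5.42 ± 0.957 (SE; adjusted p = 0.00901). Over the alternatives the adjusted p ran from 0.00901 to 1.00.

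Loci leaning the other way had few entries in Control. The locus chr16:61338251-61338321 on the minus strand had 52, 148, 662, 114, 126 and 127 counts in CR replicates 1, 2, 3, 4, 6 and 8 and 0 in CR replicates 5 and 7, against 93 in Control replicate 5 and 0 in the other 4 Control libraries. Its log2 fold change was 2.98 ± 1.98 (SE; edgeR, adjusted p = 0.988). Leaving out CR replicate 3 gave 1.84. When Control replicate 5 was left out, all remaining Control libraries were at 0 and the fitted value of 10.76 depends on the prior count. The chromosome 2 group of 3 identical rows had 6, 35, 44, 15 and 42 counts in CR replicates 1, 4, 5, 6 and 7, against 18 in Control replicate 3, and 0 elsewhere, with a log2 fold change of 2.21 ± 1.41 (SE), or 7.08 without Control replicate 3, its sole Control entry. The loci chr7:163218916-163218972 and chr14:49321967-49322033, both on the plus strand, had log2 fold changes of 2.06 ± 1.36 and 1.12 ± 0.78 (SE). The first was 6.28 without Control replicate 2, its sole Control entry, and the second was 0.11 ± 0.57 with zeros treated as missing entries. Each had an adjusted edgeR p of 0.988.

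Presence of counts was compared as well, since it needs no level for the zeros. Fisher's exact test on the number of libraries with counts ran over 995 rows of the table, 687 of them predicted loci, and called 0 (0%). Without adjustment, 4 predicted loci (3 patterns) had a p under 0.05, where the table had 7 such rows (0.704%). The smallest Fisher's exact p that 8 libraries against 5 allow is 0.000777. A single row at that p could not pass after adjustment over 995 rows, so the lack of calls says little about the diets. Of the 4, the identical scaffold rows above were in 2 of 8 CR libraries and 5 of 5 Control libraries (Fisher's exact p = 0.0210, adjusted p = 1). The others were chr13:75876534-75876595 and chr19:43231373-43231458 on the plus strand, each in 0 of 8 CR libraries and 3 of 5 Control libraries (Fisher's exact p = 0.0350, adjusted p = 1). Their entries were only 2 or 3 counts, near the limit of what a single library can show. Whether depth accounts for the 0 in all 8 CR libraries together was not tested.

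The share of a library's counts in predicted loci varied as much within a diet as between diets. It was 1.14, 1.15, 1.496, 0.430, 2.05, 0.893, 2.26 and 0.554% in CR replicates 1 to 8, against 1.24, 0.305, 1.43, 0.164 and 1.27% in Control replicates 1 to 5. The means were 1.25% ± 0.658 in CR (SD, n = 8) and 0.881% ± 0.597 in Control (SD, n = 5), a difference of 0.365 percentage points that is smaller than either SD. With the muscle miRNA miR-486 left out of the library totals, the means were 2.94% ± 1.303 in CR (SD, n = 8) and 2.08% ± 1.51 in Control (SD, n = 5), and the difference of 0.857 points was again smaller than either SD. With miR-486 kept in the totals, leaving out Control replicate 4 changed the difference of 0.365 to 0.186. Leaving out Control replicate 2 gave 0.221, and leaving out CR replicate 7 gave 0.220, while leaving out Control replicate 3 gave 0.503. The 5 libraries with the lowest shares were the 5 in which the chromosome 1 locus with the highest total was listed at 0.

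Without that chromosome 1 locus the share was 0.774% ± 0.389 in CR (SD, n = 8) and 0.341% ± 0.117 in Control (SD, n = 5), with ranges of 0.223 to 1.31% and 0.164 to 0.482% that overlapped. The difference was 0.433 points, larger than either SD. The highest of these shares, in CR replicates 7 and 5, held abundant rows listed in few libraries. In CR replicate 7, chr4:113958141-113958195 (plus strand), listed in that library alone, had 46063 of the 112615 counts of predicted loci. In CR replicate 5 the mitochondrial locus took 0.543% of the library, and its scaffold match took the same share again. Over loci with counts in at least 3 libraries, with the chromosome 1 locus included, the difference was 0.203 points. Counting rows with identical counts once, again with the chromosome 1 locus included, gave 0.246 points. Both values are to be set against 0.365 points for all predicted loci, and not against the 0.433.

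**Figure D5:**
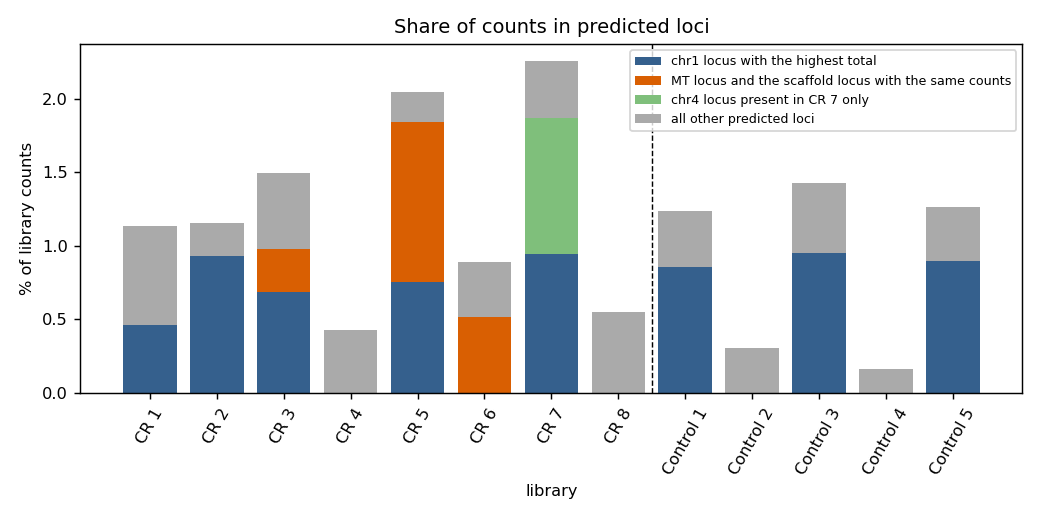
Percent of each library's counts in predicted loci, split by class of locus, with the 8 CR libraries left of the 5 Control libraries. The chromosome 1 locus with the highest total is absent from the 5 lowest bars, and the mitochondrial locus and the scaffold locus with the same counts appear in CR replicates 3, 5 and 6 only.

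The number of loci with counts was 106 to 149 in CR with a median of 139, against 94, 135, 129, 150 and 74 in Control replicates 1 to 5. The ranges overlapped, and the SD was 14.9 loci in CR (n = 8) and 31.4 loci in Control (n = 5). The means differed by 16.6 loci, higher in CR, and this difference fell to 6.0 without Control replicate 5 and to 11 without Control replicate 1. It was 25 without Control replicate 4. After thinning every library to the depth of the smallest, the means were 113 ± 16.5 in CR (SD, n = 8) and 102.4 ± 25.01 in Control (SD, n = 5). Between 30 and 59 of the loci in a CR library, and 12 to 52 in a Control library, were listed in that library only.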

How the data were processed

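The table holds raw whole-number counts per row and library, as deposited by the authors and read from its values, without normalization. Coordinates refer to Mmul_8.0.1, the build named in the submitters' processing notes. How reads were aligned and counted and how loci were predicted is not given in the sources used here. Lengths are end minus start plus 1, and whether starts count from 0 or 1 is not stated. RNA was purified with Trizol and libraries used the TruSeq small RNA kit, per the labels' protocols.

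Named miRNAs listed more than once (67 names) were reduced to the row with the highest total, and 3 pairs differing by at most 1% were merged, leaving 909 miRNAs, 297 of them at 0 in every library. These and the 702 loci were fitted together in R 4.3.3 with edgeR 4.0.16 (robust quasi-likelihood test, TMM factors of 0.622 to 1.50, filterByExpr), with Benjamini-Hochberg adjustment over all rows at 0.05. The SE of an edgeR fold change was derived from the test, as the absolute log2 fold change divided by the square root of the F statistic. The 95% intervals rest on that SE. Presence of at least 1 count was compared with two-sided Fisher's exact tests in R, and the smallest p possible was taken from scipy 1.17.1. Alternatives used DESeq2 1.42.0, limma 3.58.1 (voom, and log2 CPM with zeros as missing entries), other scalings and filters, the replicate number as a block, and leaving out each library. Shares and numbers of loci are descriptions without a test. The limit of 3 counts for a 0 covers counting error only, since PCR copies are not independent molecules, whereas intervals of fold changes come from the spread between libraries. Scripts were tested on simulated data.

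The members were taken by row name alone, while the lists of named loci used measured values. Both rules were set with earlier results of these data known. Loci named were those in all 13 libraries, the 10 highest totals, the 10 smallest edgeR p, the highest mitochondrial and scaffold loci, the shortest and longest, the 5 smallest presence p, the highest single-library and overlapping loci, and the 5 most concentrated in 1 library among those in at least 7. By this last rule chr16:34338400-34338460 (plus strand) had 43.4% of its counts in CR replicate 4, and chr4:34051840-34051905 (plus strand) 34.1% in Control replicate 4.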

Additional observations from a re-analysis of the deposited data

Results flagged for a closer look

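Within each diet, 38 groups of values (shares, numbers of loci, and CPM of the loci in all 13 libraries) were examined for a sample far from the others, and 5 were found. Chance gives about 1 in 20. The groups were not all independent, since some of the loci had identical counts. The share of counts on unplaced scaffolds was 0.551% in CR replicate 5, against 0.00458 to 0.263% in the other CR libraries. The locus chr9:99205167-99205229 (minus strand) was at 110.1 CPM in CR replicate 1, against 64.2 to 85.7 CPM in the other CR libraries. The locus chr15:28246144-28246201 (plus strand) stood apart in both diets, at 263.0 CPM in CR replicate 4 (other CR libraries 8.996 to 95.3 CPM) and at 109.9 CPM in Control replicate 3 (other Control libraries 3.15 to 29.0 CPM). The locus chr14:104382412-104382471 (minus strand) was at 54.0 CPM in Control replicate 3, against 2.43 to 8.21 CPM in the other Control libraries.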

How the results depend on the processing

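The edgeR count of 0 called loci became 2 under limma-voom and 1 with the replicate block (0.311% of all rows), and stayed 0 under the other alternatives run, each library left out included. Without the filter 702 loci were tested, and 122 (17.4%) had an unadjusted p under 0.05, against 10.7% of all rows, with 0 called. The cause was not tested. The presence test gave 0 calls in every alternative run, but a single row could not have passed its adjustment. The replicate numbers showed no clear pairing of the samples, though so few values cannot exclude it. The correlations of deviations for numbers 1 to 5 were 0.17, 0.0743, -0.0874, 0.0781 and 0.21. Of 10 libraries, 2 were most alike their own number. The call with the block was chr1:161917776-161917825, listed at 0 in 8 libraries, at -13.05 (adjusted p = 0.0415) against 0.33 ± 2.60 (SE, adjusted p = 0.988) without it.

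Leaving miR-486 out of the totals gave differences, CR minus Control, of 0.857 percentage points for all predicted loci, 0.299 for the mitochondrial locus and 0.297 for scaffolds, on a smaller total. Of 610 alternative values for 28 single loci, 572 kept direction and side of the threshold. In the same direction 2 became calls, and 36 (in 11 loci) reversed. Of the reversed values 1 was also a call, that of chr1:161917776-161917825 with the replicate block. The log2 fold change of chr6:3016739-3016797 was -0.0554 with voom, -0.28 with library totals, -0.0481 with zeros missing and -0.15 with the block. That of chr1:13705724-13705791 was 0.67 with voom and 0.32 with the block, and that of chr8:92447795-92447853 was 0.26 with zeros missing. With library totals chr1:161917776-161917825 was -0.0806, chr9:81534767-81534824 was -0.13, and chr20:74558562-74558622 was -0.17. That of chr14:1956807-1956870 was 0.0193 with zeros missing, 0.18 with the block, and 0.0277 with identical rows kept once, an alternative chosen after seeing the data that gave 0.0190 for chr8:92447795-92447853. Leaving out single libraries gave -0.0810 to 0.24 for chr6:3016739-3016797, -0.0794 to 0.30 for chr9:81534767-81534824, -0.00759 to 0.18 for chr20:74558562-74558622, -0.28 to 0.30 for chr14:1956807-1956870, -1.08 to 0.77 for chr14:104382412-104382471, -0.23 to 0.15 for chr8:92447795-92447853, -0.0386 to 1.15 for chr1:161917776-161917825, -0.17 to 0.90 for chr2:50860331-50860408, and -0.0995 to 0.31 for chr20:11770888-11770951 and the scaffold row with the same counts. At 426 loci the total was under 10, so depth limits what they show.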
